A study of Coturnix japonica with 12 samples.

Results

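Integrins are the cell-surface receptors for the extracellular matrix, and laminins are main components of the basement membrane to which many of them bind. The 40 genes described here, of 16013 in the deposited table, were chosen by symbol. They are the genes named as integrin alpha or beta subunits, the laminin alpha, beta and gamma chains, and NID1, NID2, HSPG2 and AGRN. The symbol rule also takes 4 genes that are named after integrins but encode no subunit of the receptor (ITGB1BP1, ITGB1BP2, ITGB3BP and ITGBL1). RNA was sequenced from Müllerian ducts, which give rise to the oviduct, taken from the left or the right side of female embryos of the Japanese quail (Coturnix japonica) cultured in surrogate eggshells. Exposure lasted from embryonic day 3 to day 12, either to sesame oil alone (oil) or to ethynylestradiol (EE), an oestrogen used as a drug, in that oil. Each of the 4 groups, left oil, right oil, left EE and right EE, has 3 samples, and all groups received the sesame oil. The labels give no dose of EE and do not say whether replicates came from separate embryos or pools. The p-values therefore rest on the spread between these samples, which may be technical. In most female birds an oviduct develops on the left and the right duct is lost, and the comparisons ask how far matrix receptor and basement membrane genes differ between the sides and change with EE.

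A laminin is a trimer of an alpha, a beta and a gamma chain. Trimers join into a sheet under epithelia and around vessels, muscle and nerve, and nidogens and the heparan sulphate proteoglycans perlecan (HSPG2) and agrin (AGRN) tie that sheet to type IV collagen. An integrin is a pair of an alpha and a beta subunit that reaches through the cell membrane. ITGB1 pairs with most alpha subunits. ITGA3, ITGA6 and ITGA7 give laminin receptors, ITGA1, ITGA2, ITGA10 and ITGA11 give collagen receptors, and ITGAV and ITGA8 give receptors of proteins with an RGD motif.

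Sequencing depth was 13303458 to 23621985 counted reads a sample. Of the 40 genes, 33 passed the filter, which asked for 3 or more of the 12 samples at 1 FPKM or above. FPKM is the read count per exon length and per total of counted reads, so it allows levels of different genes to be set side by side. The log2 ratios are from edgeR on counts with TMM scaling, which also corrects for transcripts that take a large share of a library, so a ratio can differ from the ratio of the FPKM values. All ratios are on the log2 scale and carry their standard error (SE), and calls rest on edgeR's quasi-likelihood test with a p under 0.05 after Benjamini-Hochberg adjustment over 12113 tested genes. A call with no other tool or setting named is from this fit. Of genes of the forming duct, PAX2 stood at 10.8 to 31.5 FPKM, LHX1 at 6.26 to 14.85 and EMX2 at 56.2 to 85.9 over the 12 samples. WNT7A stood at 10.1 to 30.5 and WNT4 at 19.98 to 68.7, while AMHR2 was low, at 0.38 to 3.18. The summed level of 9 epithelial marker genes was 519 to 576 FPKM in left oil ducts, 355 to 395 in right oil ducts, 643 to 752 in left EE ducts and 627 to 699 in right EE ducts. For 13 endothelial markers the ranges in the same order were 206 to 226, 94.9 to 111, 193 to 220.3 and 187 to 203, and for 10 smooth muscle markers 1415 to 1768, 539.8 to 981, 1778 to 2030.2 and 1107 to 1755. By these sums right oil ducts were lowest in transcripts of epithelium, vessels and smooth muscle, but not every marker went that way. On the left in oil, 6 epithelial markers were called higher and 1 lower, 10 and 1 of the endothelial, and 9 and 0 of the smooth muscle. KDR, an endothelial marker, stood at 12.9 to 22.3 FPKM in right and 7.59 to 9.01 in left oil ducts. Right oil ducts were highest in summed transcripts of macrophages and leukocytes (90.4 to 92.04 FPKM over 9 markers, against 32.6 to 36.7 in left oil ducts). Their 6 erythroid markers summed to 374 to 752 FPKM, against 133 to 215 in left oil ducts, 86.1 to 205 in left EE ducts and 127 to 403 in right EE ducts. Of 68 markers on these 5 lists, 47 were in the table and none was at 0 in every sample. For 12 mesenchyme markers the ranges in the order above were 5078 to 5446, 3480.2 to 4501, 3144 to 3730.5 and 2964 to 3273 FPKM, and for 7 markers of mesothelium, of which UPK3B was at 0 throughout, 77.7 to 93.2, 90.7 to 109, 53.7 to 63.9 and 52.3 to 66.02. These sums hide a mixed picture between the sides in oil. There 3 mesenchyme markers were called higher and 3 lower on the left (median log2 ratio 0.041), and 2 and 2 of the mesothelial. The part of these cell types in the results was not tested, except that erythroid transcripts entered as a covariate. In such bulk samples, fewer cells of a type and less RNA per cell cannot be told apart. The 9 skeletal muscle markers set right oil replicate 1 apart, at 168 FPKM in sum against 9.12 to 20.2 in the other 11 libraries. Over all genes, replicate 2 of each right group stood apart by the chi-square per degree of freedom between libraries of a group. Right oil replicate 2 gave 80.6 and 53.7 with replicates 1 and 3, which gave 18.1 with each other. Right EE replicate 2 gave 65.5 and 44.6, against 22.2 for replicates 1 and 3. The lowest TMM factor of the 12 libraries (0.850) was that of right oil replicate 2.

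Left and right oil ducts differed in most of the genes that could be tested. Among the 33, the left side was higher in 18 and lower in 4, which is 66.7% called beside 36.5% of all tested genes (18.4% higher and 18.1% lower on the left). Integrin subunits made up 10 of those higher and 3 of those lower, of 17 tested, and laminin chains 4 and 1 of 9. The median log2 ratio of the 33 genes was 0.41, beside -0.0037 over all tested genes. The genes lower on the left were ITGA8, ITGA11, ITGB5 and LAMB2. The groups did not overlap in scaled counts for 22 of the 33 genes, beside 47.4% of all tested genes. With an erythroid covariate 10 were called, 7 higher and 3 lower on the left, and the calls lost were those of AGRN, ITGA1, ITGA3, ITGA4, ITGA7, ITGA11, ITGB4, ITGB8, ITGBL1, LAMA4, LAMC1 and NID1. Some of these ratios stayed about as large, with ITGA3 at 0.36 and ITGBL1 at 1.05 in place of 0.34 ± 0.10 and 1.09 ± 0.26, and others shrank, with ITGA1 at 0.10 and LAMA4 at 0.21 in place of 0.40 ± 0.13 and 0.64 ± 0.14. Under library size scaling 21 of the 33 were higher and 2 lower, and of all tested genes 3749 were higher and 1224 lower in place of 2232 and 2190, so the even split of all genes depends on the scaling.

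In EE none of the 33 genes was called between the sides with edgeR, beside 0.0826% of all tested genes. DESeq2 called 1 of them, LAMA5, beside 0.66% of all tested genes, limma called 0, and 4 had an unadjusted edgeR p under 0.05 (LAMA5, ITGB5, ITGB1 and ITGB3BP). The log2 ratios lay between -0.38 and 0.41, with 25 of 33 above 0. Their median was 0.12, beside 0.0059 over all tested genes. All 3 left ducts lay above or below all 3 right ducts for 5 genes, beside 12.6% of all tested genes.

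EE changed 4 of the 33 genes in left ducts, 2 up (LAMA1 and ITGA2) and 2 down (ITGB5 and ITGBL1), which is 12.1% beside 13.3% of all tested genes (6.79% higher and 6.46% lower). The groups did not overlap for 14 of the 33, beside 31.3% of all tested genes. In right ducts 18 were called, 15 higher and 3 lower in EE, which is 54.5% beside 34% of all tested genes (17.6% higher and 16.4% lower). Here the groups did not overlap for 18 of the 33, beside 46.1% of all tested genes. The median log2 ratio of the 33 genes was -0.028 in left ducts and 0.27 in right ducts, beside 0.0025 and 0.0028 over all tested genes. With an erythroid covariate 7 genes were called in left ducts, 2 higher and 5 lower, and 10 in right ducts, 7 higher and 3 lower. LAMA2, LAMA4 and ITGB1 were added in left ducts and ITGA8 in right ducts, where the calls of ITGA4, ITGA7, ITGA9, ITGA11, ITGB1, ITGB4, LAMB1, LAMC1 and NID1 were lost. Of these, LAMB1 stood at 0.27 and LAMC1 at 0.28 with the covariate, in place of 0.27 ± 0.09 and 0.34 ± 0.09, while ITGB1 and NID1 fell to 0.12 and 0.22 from 0.27 ± 0.09 and 0.45 ± 0.16. Library size scaling gave 18 higher and 2 lower of the 33 in right ducts, and 3479 and 1113 of all tested genes. The side comparison in oil and the EE comparison in right ducts share the right oil samples, and those in oil and in left ducts share the left oil samples, so their values are given side by side and not as independent evidence.

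**Figure D1:**
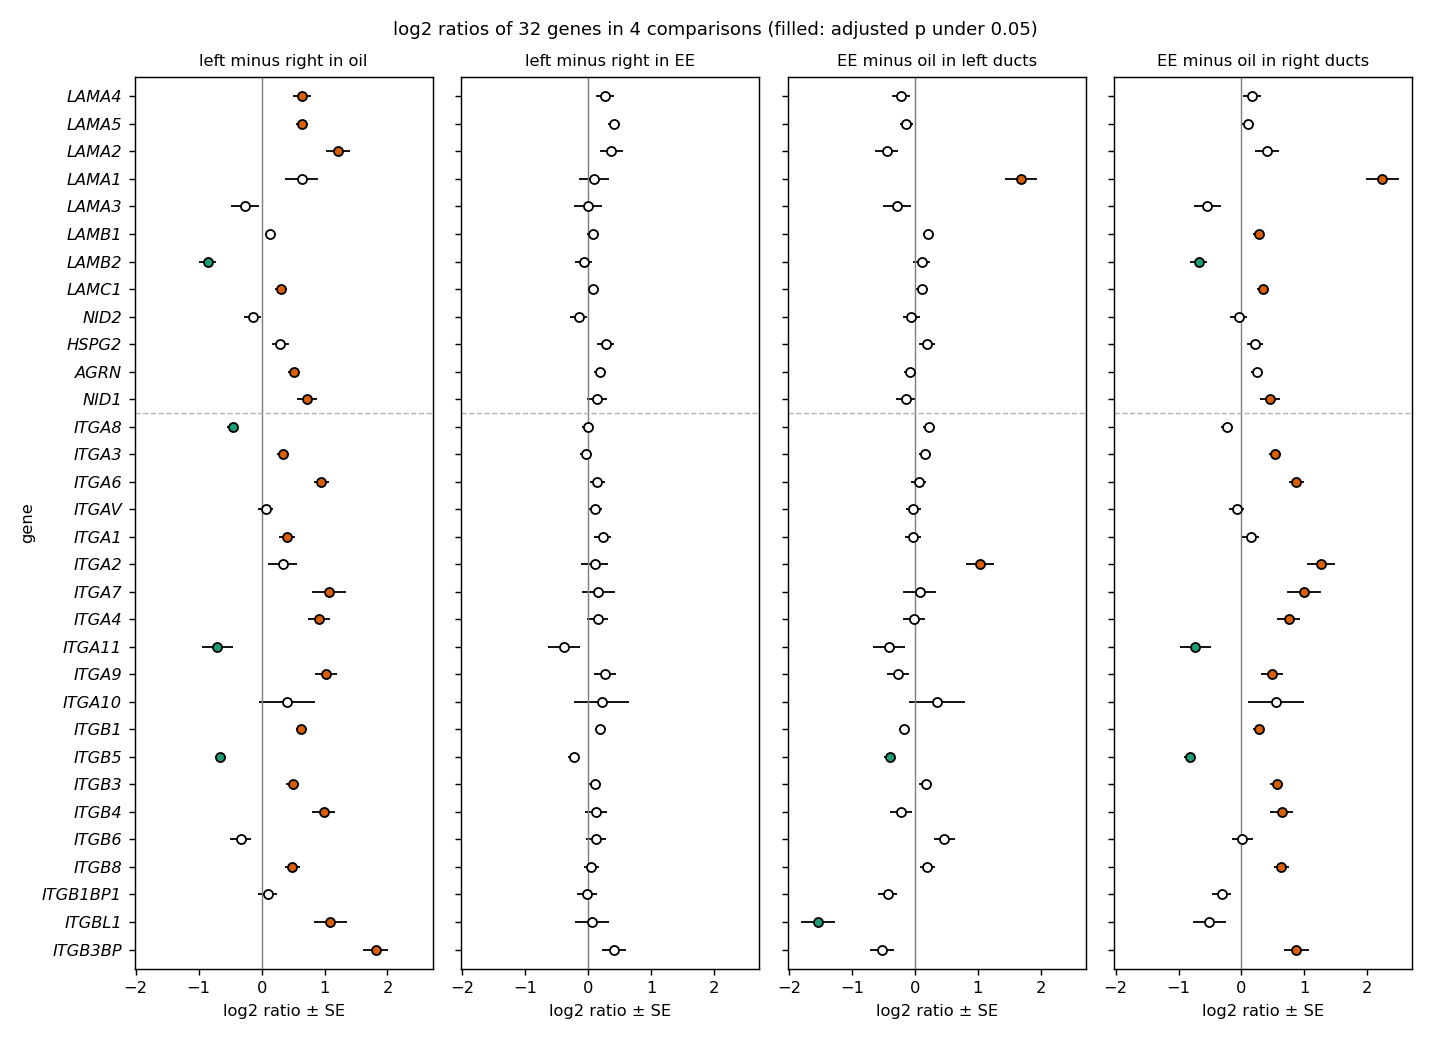
log2 ratio with its SE (horizontal axis) of 32 of the 33 genes that passed the filter, in 4 comparisons, with laminin chains and their partners above the dashed line and integrin genes under it. Filled points passed an adjusted p of 0.05, orange where higher and green where lower in the group named first. In the first panel 18 points are filled to the right and 4 to the left, in the second none is filled, and LAMA1 lies farthest right in both EE panels.

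Of the laminin alpha chains, LAMA1 had the largest change with EE of the 33 genes on either side. LAMA1 (chromosome 2, 89708439 to 89805628) is the alpha chain of the first basement membranes of the mouse embryo. It stood at 2.25, 1.75 and 1.85 FPKM in left oil ducts, 1.19, 1.09 and 1.04 in right oil ducts, 7.05, 4.65 and 7.44 in left EE ducts and 7.34, 7.1 and 3.21 in right EE ducts. Every EE sample lay above every oil sample, and among right EE ducts the third replicate was well under the other 2. EE raised LAMA1 by a log2 ratio of 1.69 ± 0.25 (SE, adjusted p = 0.000273) in left ducts and by 2.24 ± 0.26 (SE, adjusted p = 1.02e-05) in right ducts. The sides did not pass the test in oil (0.64 ± 0.26, adjusted p = 0.0711), although the 3 left oil samples all lay above the right ones. They passed without the third right EE replicate (adjusted p = 0.00929), with only the oil groups fitted (adjusted p = 0.0163), with library size scaling (adjusted p = 0.0169) and with limma on log2(FPKM + 0.1) (adjusted p = 0.046). The difference between the EE effects of the sides did not pass either (-0.55 ± 0.36, adjusted p = 0.382), but it was called without the third right EE replicate (log2 -0.84, adjusted p = 0.0385).

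LAMA4 and LAMA5 were the most abundant laminin alpha transcripts in all 4 groups. LAMA4, found in vessel walls and mesenchyme, stood at 28.7, 29.8 and 29.6 FPKM in left oil ducts, 20.1, 14.1 and 15.8 in right oil ducts, 29.4, 22.8 and 24.3 in left EE ducts and 18.6, 26.9 and 17.3 in right EE ducts. The left oil samples were closely grouped and all above the right ones, while in EE the sides overlapped. The left minus right ratio was 0.64 ± 0.14 (SE, adjusted p = 0.00217) in oil and 0.26 ± 0.14 (SE, adjusted p = 0.711) in EE. LAMA5 (chromosome 20, 6997824 to 7072791), a chain of epithelial and vessel basement membranes, stood at 19.5, 19.6 and 19.8 FPKM in left oil ducts, 12.3, 9.89 and 11.01 in right oil ducts, 16.99, 17.1 and 20.1 in left EE ducts and 12.5, 15.7 and 11.7 in right EE ducts. In oil and in EE the 3 left samples lay above the 3 right ones, and LAMA5 was the gene of the 33 with the lowest p between the sides in EE. Its left minus right ratio was 0.65 ± 0.10 (SE, adjusted p = 0.000105) in oil and 0.41 ± 0.10 (SE, adjusted p = 0.208) in EE, where DESeq2 gave an adjusted p of 0.0167. Without the second right EE replicate edgeR called it too (adjusted p = 0.0208). The EE ratios of LAMA4 and LAMA5 passed the test on neither side, at -0.22 ± 0.14 and -0.13 ± 0.10 in left ducts and of 0.17 ± 0.14 and 0.10 ± 0.10 in right ducts (adjusted p from 0.365 to 0.474).

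LAMA2, the chain of muscle and nerve basement membranes, stood at 6.05, 5.76 and 7.98 FPKM in left oil ducts, 3.23, 1.9 and 2.42 in right oil ducts, 4.96, 3.99 and 5.67 in left EE ducts and 3.57, 4.68 and 2.91 in right EE ducts. It was the laminin chain with the widest gap between the sides in oil, 1.21 ± 0.19 (SE, adjusted p = 0.000129). All left EE samples lay under all left oil samples, and right EE samples overlapped the right oil ones, but neither EE ratio passed the test, at -0.44 ± 0.18 (SE, adjusted p = 0.133) in left and 0.40 ± 0.19 (SE, adjusted p = 0.114) in right ducts. The right ratio was called without the first right oil or the third right EE replicate (adjusted p = 0.0295 and 0.0396) and with library size scaling (adjusted p = 0.0359). The left ratio was called with only the left groups fitted (adjusted p = 0.0477) and with the erythroid covariate (adjusted p = 0.0386). The LAMA2 interaction, which subtracts the side difference of oil from that of EE, fell just short of the threshold (-0.85 ± 0.26, adjusted p = 0.0501) and passed it with DESeq2 (adjusted p = 0.0143). LAMA3, which with LAMB3 takes part in the laminin that anchors skin epithelium, stayed between 0.94 and 2.48 FPKM. EdgeR called LAMA3 in no comparison, with -0.54 ± 0.22 (SE, adjusted p = 0.07) for EE in right ducts, where DESeq2 called it (adjusted p = 0.0425), as did edgeR without the third right oil or the third right EE replicate (adjusted p = 0.0412 and 0.0328). LAMB3, under the filter, lay between 0.23 and 1.15 FPKM.

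LAMB1 and LAMC1, which take part in most laminins of the embryo, were the most abundant laminin transcripts. LAMB1 stood at 104, 95.6 and 99.8 FPKM in left oil ducts, 86.9, 71.8 and 81.7 in right oil ducts, 115, 108 and 128 in left EE ducts and 114, 115 and 97.6 in right EE ducts. Its left minus right ratio in oil did not pass the test (0.14 ± 0.09, adjusted p = 0.247), but was 0.32 and called with limma on log2(FPKM + 1) (adjusted p = 0.0167) and 0.32 with library size scaling (adjusted p = 0.0161). EE raised it in right ducts by 0.27 ± 0.09 (SE, adjusted p = 0.024), a call lost when the second or the third right oil replicate, or the first or second right EE replicate was left out, and when the first left oil, right oil and right EE replicates were left out together (adjusted p from 0.0652 to 0.118). LAMC1 stood at 75.8, 81.8 and 81.7 FPKM in left oil ducts, 62.4, 48.8 and 59.3 in right oil ducts, 88.5, 78.03 and 94.3 in left EE ducts and 82.3, 87.6 and 71.95 in right EE ducts. The right oil samples were the 3 lowest of the 12, and LAMC1 was 0.31 ± 0.09 (SE, adjusted p = 0.0148) in left minus right oil ducts and rose with EE in right ducts by 0.34 ± 0.09 (SE, adjusted p = 0.00904). The call between the sides was lost without the second right oil replicate (adjusted p = 0.0641). In left ducts EE gave 0.11 ± 0.09 (SE, adjusted p = 0.492) for LAMC1 and 0.21 ± 0.09 (SE, adjusted p = 0.13) for LAMB1.

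LAMB2 went the other way. This beta chain, known from the nerve-muscle synapse and the kidney filter, stood at 19.3, 21.2 and 15.03 FPKM in left oil ducts, 32.5, 31.5 and 24.8 in right oil ducts, 19.5, 19.3 and 21.9 in left EE ducts and 18.5, 23.2 and 20.9 in right EE ducts. All 3 right oil samples lay above the other 9 samples, and the other 3 groups overlapped one another. LAMB2 was lower on the left in oil by a log2 ratio of -0.86 ± 0.13 (SE, adjusted p = 0.000131), EE lowered it in right ducts by -0.68 ± 0.13 (SE, adjusted p = 0.00098), and in left ducts the EE ratio was 0.11 ± 0.13 (SE, adjusted p = 0.669). The side difference itself changed with EE (0.79 ± 0.19, adjusted p = 0.012 for the interaction). That call was not made by limma on log2(FPKM + 1) (adjusted p = 0.0563) nor without the first left oil, right oil and right EE replicates together (adjusted p = 0.0635). LAMB2 lies on chromosome 12 (9080454 to 9089515, + strand), 112 bases downstream of a second gene on the same strand described in the table as laminin subunit beta-2-like (LOC107319878). How reads that fit both genes were counted, or whether they were left out, is not known here, so the LAMB2 values are uncertain in that respect. LOC107319878 stood at 3.84 ± 1.1 FPKM (SD, n = 3) in left and 3.02 ± 0.85 in right oil ducts, and in right ducts it was higher in EE (0.61 ± 0.22, adjusted p = 0.0449), the reverse of LAMB2. LAMB4 and LAMC3 were under the filter, LAMB4 with 0.32 FPKM at most and listed at 0 in all 3 right oil samples, and LAMC3 with 0.77 at most. LAMB4 lies 2063 bases from LAMB1 on the same strand of chromosome 1, and the 2 differed widely in level.

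Among the genes that link laminin to collagen, NID1 and AGRN were higher on the left in oil, and NID2 was called in no comparison. NID1, nidogen, stood at 32.4, 29.2 and 30.8 FPKM in left oil ducts, 23.4, 12.7 and 13.5 in right oil ducts, 29.5, 27.1 and 27.9 in left EE ducts and 23.9, 29.8 and 21.98 in right EE ducts. In right oil ducts the first replicate, the one with skeletal muscle transcripts, was well above the other 2. The NID1 ratio was 0.73 ± 0.16 (SE, adjusted p = 0.00245) for left minus right in oil and 0.45 ± 0.16 (SE, adjusted p = 0.0423) for EE minus oil in right ducts, and without that library the values were 1.03 and 0.75. The NID1 interaction was not called (-0.59 ± 0.23, adjusted p = 0.113), but without that library it stood at -0.89 (adjusted p = 0.000909). The EE call of NID1 in right ducts was lost without any 1 of the other samples except the third right EE replicate (adjusted p from 0.0512 to 0.179). AGRN stood at 44.02, 44.3 and 40.9 FPKM in left oil ducts, 30.3, 23.4 and 26.5 in right oil ducts, 38.2, 43.04 and 42.7 in left EE ducts and 31.9, 41.6 and 33.7 in right EE ducts, with every left oil sample above every right one and a ratio of 0.51 ± 0.09 (SE, adjusted p = 0.000576). Its EE ratio in right ducts fell just short of the threshold (0.25 ± 0.09, adjusted p = 0.0509) and passed it with DESeq2 (adjusted p = 0.032). HSPG2 stood at 70.6 ± 8.32 FPKM (SD, n = 3) in left and 50.8 ± 8.13 in right oil ducts, with a ratio of 0.30 ± 0.13 (SE, adjusted p = 0.0906) that did not pass. HSPG2 was called between the sides in oil by DESeq2 (adjusted p = 0.0472), by limma on log2(FPKM + 1) (log2 0.47, adjusted p = 0.0174), with library size scaling (adjusted p = 0.0111), and without the third left oil or the first right oil replicate (adjusted p = 0.0384 and 0.0357). With library size scaling it was also called for EE in right ducts (adjusted p = 0.037). NID2 had group means between 73.04 and 79.6 FPKM, and the groups overlapped in all 4 comparisons.

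**Figure D2:**
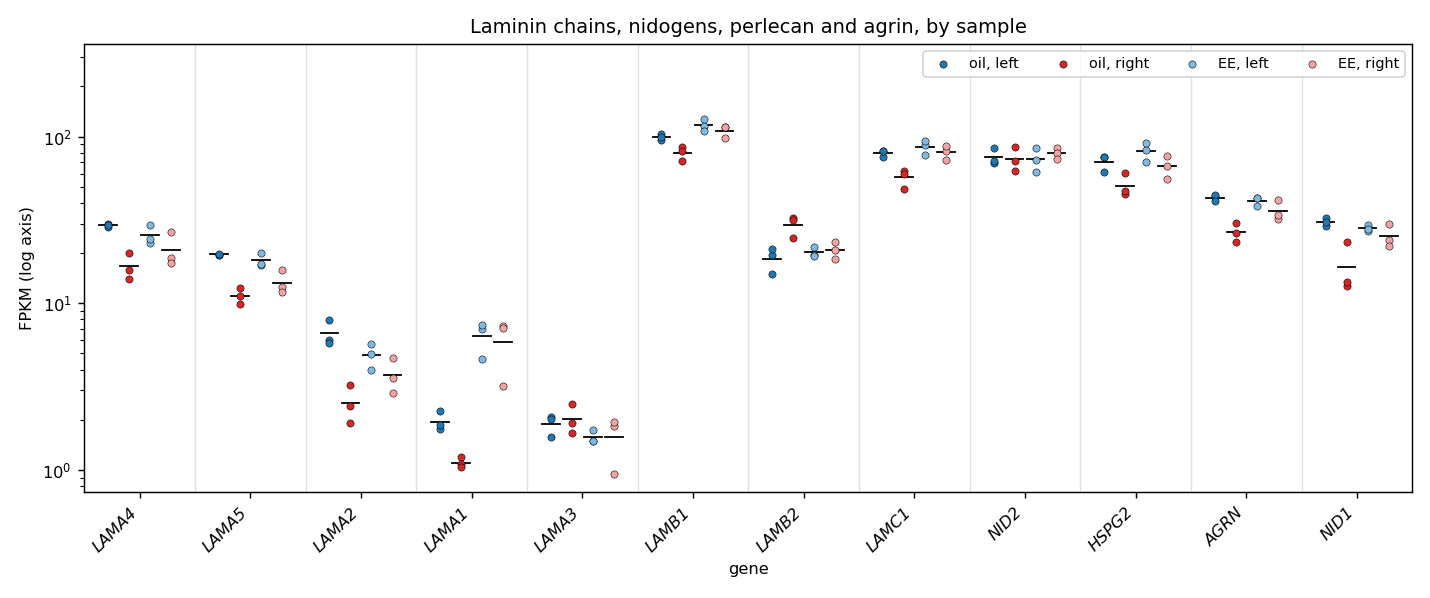
FPKM (log axis) of 12 laminin, nidogen and proteoglycan genes in each of the 12 samples, coloured by group, with a bar at the mean of 3 samples. LAMA1 shows the EE samples above the oil samples on both sides, and LAMB2 shows the right oil samples above all others. For LAMA1, LAMA2, LAMA4, LAMA5, LAMB1, LAMC1, AGRN, HSPG2 and NID1 the left oil samples lie above the right ones. In TMM-scaled counts the oil sides overlapped for LAMB1 and HSPG2.

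Laminin receptors were higher on the left in oil. ITGA6 (chromosome 7, 15821181 to 15858171), which pairs with ITGB1 or with ITGB4, stood at 19.9, 23.8 and 23.3 FPKM in left oil ducts, 11.6, 9.43 and 9.49 in right oil ducts, 18.8, 25.5 and 26.4 in left EE ducts and 18.2, 22.7 and 21.97 in right EE ducts. The right oil samples were the 3 lowest and the other groups overlapped. The ITGA6 ratio was 0.95 ± 0.12 (SE, adjusted p = 2.04e-05) between the sides in oil, 0.87 ± 0.12 (SE, adjusted p = 5.02e-05) for EE in right ducts and 0.06 ± 0.12 (SE, adjusted p = 0.794) for EE in left ducts. Its interaction of -0.81 ± 0.17 (SE, adjusted p = 0.0052) was called under all 23 alternatives that gave it a value, as were its calls in oil and in right ducts. ITGA3, a laminin receptor of epithelia, stood at 33.6 ± 4.66 FPKM (SD, n = 3) in left and 23.6 ± 1.82 in right oil ducts, and at 38.02 ± 1.04 and 38.2 ± 2.19 in EE. Its ratio was 0.34 ± 0.10 (SE, adjusted p = 0.0118) in oil, not called without the first left oil replicate (adjusted p = 0.0717), and 0.53 ± 0.10 (SE, adjusted p = 0.000528) for EE in right ducts. ITGA7, the laminin receptor of muscle, stood at 4.71, 5.07 and 3.64 FPKM in left oil ducts, 3.08, 1.26 and 1.34 in right oil ducts, 5.07, 4.14 and 5.13 in left EE ducts and 4.41, 4.93 and 3.28 in right EE ducts. The first right oil replicate was again above the other 2. ITGA7 had a ratio of 1.08 ± 0.27 (SE, adjusted p = 0.00539) between the sides in oil and of 0.99 ± 0.27 (SE, adjusted p = 0.00915) for EE in right ducts. Without that library the side ratio stood at 1.58, and the interaction, not called with it (-0.92 ± 0.37, adjusted p = 0.137), was called (log2 -1.42, adjusted p = 0.00327).

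ITGB4, which joins ITGA6 in the hemidesmosomes of epithelia, stood at 6.11, 6.19 and 6.4 FPKM in left oil ducts, 3.47, 1.85 and 3.05 in right oil ducts, 5.57, 6.11 and 4.51 in left EE ducts and 4.85, 5.9 and 3.79 in right EE ducts. It was higher on the left in oil (0.99 ± 0.18, adjusted p = 0.000558) and rose with EE in right ducts (0.64 ± 0.18, adjusted p = 0.0123), with an interaction of -0.86 ± 0.25 (SE, adjusted p = 0.0383). The interaction was lost without any 1 of 9 samples (adjusted p from 0.0532 to 0.108). The EE call in right ducts was lost without the second right oil or second right EE replicate (adjusted p = 0.0555 and 0.0697). A stretch of 311 bases of ITGB4 is shared with GALK1 on the opposite strand, and without a stated strand setting reads there cannot be told apart. The same holds for 946 bases of ITGA11 with CORO2B, 71 of ITGB3BP with EFCAB7 and 27 of ITGB1BP1 with CPSF3.

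ITGB1 (chromosome 2, 12735489 to 12757866), the common beta subunit, was the most abundant of the 40 transcripts. It stood at 254, 265 and 307 FPKM in left oil ducts, 166, 137 and 167 in right oil ducts, 257, 242 and 241 in left EE ducts and 187, 235 and 215 in right EE ducts. The right oil samples were the 3 lowest, and the right EE samples lay between them and the left oil samples. Left EE samples overlapped left oil in FPKM, but all lay under left oil in TMM-scaled counts. The ITGB1 ratio was 0.63 ± 0.09 (SE, adjusted p = 4.1e-05) between the sides in oil and 0.27 ± 0.09 (SE, adjusted p = 0.0238) for EE in right ducts, against -0.17 ± 0.09 (SE, adjusted p = 0.223) in left ducts. The interaction was -0.44 ± 0.12 (SE, adjusted p = 0.0281). That call was lost without the third left oil, second right oil, second left EE, the third left EE, or the second right EE replicate (adjusted p from 0.0586 to 0.0725), and the EE call in right ducts without the second right oil, second right EE or the third right EE replicate (adjusted p from 0.0546 to 0.106).

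The collagen receptor subunits each followed a different course. ITGA2, a collagen receptor of epithelia and platelets, stood at 1.97, 2.96 and 3.85 FPKM in left oil ducts, 2.07, 1.83 and 2.2 in right oil ducts, 6.03, 5.92 and 6.08 in left EE ducts and 4.58, 7.82 and 4.16 in right EE ducts. All EE samples lay above all oil samples, as for LAMA1. EE raised ITGA2 by a log2 ratio of 1.04 ± 0.22 (SE, adjusted p = 0.00474) in left and 1.27 ± 0.22 (SE, adjusted p = 0.000432) in right ducts, and these calls stood under all alternatives, while the sides in oil did not pass (0.33 ± 0.23, adjusted p = 0.275). ITGA1, which lies 13466 bases from ITGA2 on the same strand of chromosome Z, stood at 14.99 ± 1.36 FPKM (SD, n = 3) in left and 10.03 ± 2.75 in right oil ducts. It was called between the sides in oil (0.40 ± 0.13, adjusted p = 0.0264), but not without the left oil replicates 2 or 3 or the right oil replicates 2 or 3 (adjusted p from 0.0729 to 0.116), and EE gave -0.03 ± 0.13 in left and 0.15 ± 0.13 in right ducts, with no call. Without the first right oil replicate the ITGA1 ratio was 0.62 between the sides in oil (adjusted p = 0.000445) and 0.36 for EE in right ducts, which was then called (adjusted p = 0.0184). The PELO gene lies within the ITGA1 locus on the same strand, and how reads of the shared stretch were counted is not known here. ITGA11, a collagen receptor of fibroblasts, stood at 1.5, 1.57 and 1.22 FPKM in left oil ducts, 1.99, 1.95 and 2.22 in right oil ducts, 0.84, 1.22 and 1.22 in left EE ducts and 1.81, 1.19 and 1.14 in right EE ducts. It was lower on the left in oil (-0.70 ± 0.25, adjusted p = 0.0393) and lower with EE in right ducts (-0.73 ± 0.25, adjusted p = 0.034). The ITGA11 call in oil was lost when any 1 oil sample was left out (adjusted p from 0.0558 to 0.127), the EE call without replicate 2 or 3 of either right group (adjusted p from 0.0774 to 0.131), and with a replicate block the adjusted p in oil was 0.0525. ITGA10 lay between 0.28 and 1.24 FPKM and was not called.

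ITGA8 was the most abundant alpha subunit in every group. It pairs with ITGB1 as the receptor of nephronectin, a pair needed for kidney growth in the mouse. ITGA8 stood at 59.9, 61.00 and 65.9 FPKM in left oil ducts, 85.7, 63.6 and 78.1 in right oil ducts, 70.5, 68.5 and 81.4 in left EE ducts and 66.8, 80.8 and 70.02 in right EE ducts. The FPKM values of the sides overlapped in oil by the second right replicate, while the TMM-scaled counts did not. In scaled counts ITGA8 was lower on the left in oil (-0.46 ± 0.09, adjusted p = 0.00101), but not with limma on log2(FPKM + 1) (adjusted p = 0.0699) or with library size scaling (adjusted p = 0.0516). EE gave 0.23 ± 0.09 (SE, adjusted p = 0.124) in left and -0.23 ± 0.09 (SE, adjusted p = 0.0653) in right ducts. DESeq2 called ITGA8 lower with EE in right ducts (adjusted p = 0.0301), as did edgeR without the second right oil or the second right EE replicate (adjusted p = 0.0241 and 0.0381). The interaction was 0.45 ± 0.13 (SE, adjusted p = 0.0322). The ITGA8 interaction was not called by limma (adjusted p = 0.271), nor without any 1 of 7 samples, both of the first oil replicates among them (adjusted p from 0.0607 to 0.0868). The gene of its ligand, NPNT, was lower on the left in oil (-0.65 ± 0.09, adjusted p = 4.53e-05) and rose with EE in left ducts (0.52 ± 0.09, adjusted p = 0.000937), with an interaction of 0.56 ± 0.13 (adjusted p = 0.00814).

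ITGAV, the alpha subunit of the receptors of vitronectin and of latent TGF-beta, was called in no comparison, with group means from 17.2 to 20.3 FPKM. Of its beta partners other than ITGB1, given above, ITGB3, ITGB5 and ITGB8 were called. ITGB5 (chromosome 7, 19125096 to 19164035), which with ITGAV binds vitronectin, stood at 29.6, 28.1 and 27.8 FPKM in left oil ducts, 41.1, 35.6 and 42.2 in right oil ducts, 20.2, 21.8 and 23.4 in left EE ducts and 22.7, 25.3 and 27.4 in right EE ducts. Right oil ducts were highest, left oil ducts next and left EE ducts lowest. ITGB5 was lower on the left in oil (-0.66 ± 0.08, adjusted p = 2.33e-05), fell with EE by 0.40 on the log2 scale in left ducts (adjusted p = 0.00465) and by 0.83 in right ducts (adjusted p = 2.8e-06), and was the single gene of the 33 called in 4 of the 5 tests. Its interaction was 0.42 ± 0.12 (SE, adjusted p = 0.0317), not called by limma (adjusted p = 0.23) nor without any 1 of 8 samples (adjusted p from 0.052 to 0.0836). ITGB3, the partner of ITGAV in vessels and of ITGA2B in thrombocytes, stood at 14.1 ± 1.37 FPKM (SD, n = 3) in left and 8.82 ± 0.231 in right oil ducts, and at 16.01 ± 0.984 and 14.7 ± 1.52 in EE. It was higher on the left in oil (0.49 ± 0.10, adjusted p = 0.00157) and rose with EE in right ducts (0.56 ± 0.10, adjusted p = 0.00061). ITGB8, which with ITGAV activates TGF-beta, stood at 3.67 ± 0.261 FPKM (SD, n = 3) in left and 2.31 ± 0.18 in right oil ducts, and at 4.25 ± 0.221 and 4.03 ± 0.67 in EE. Its ratio was 0.49 ± 0.12 (SE, adjusted p = 0.00409) between the sides in oil and 0.63 ± 0.12 (SE, adjusted p = 0.000598) for EE in right ducts. ITGB6, the epithelial subunit of that function, lay between 2.72 and 4.9 FPKM and was not called. With a replicate block it passed in left ducts, where EE gave 0.47 ± 0.17 (SE, adjusted p = 0.0775) without the block and an adjusted p of 0.0362 with it, and with only the left groups fitted (adjusted p = 0.0412).

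ITGA4 and ITGA9, related receptors of fibronectin, VCAM1 and tenascin, were low and higher on the left in oil. ITGA4 stood at 2.27, 2.67 and 3.43 FPKM in left oil ducts, 1.44, 1.15 and 1.31 in right oil ducts, 2.91, 2.79 and 2.6 in left EE ducts and 2.04, 3.15 and 2.19 in right EE ducts, and the right oil samples were the 3 lowest. Its ratio was 0.91 ± 0.18 (SE, adjusted p = 0.000852) in oil and 0.75 ± 0.18 (SE, adjusted p = 0.00389) for EE in right ducts. ITGA9 stood at 1.81 ± 0.22 FPKM (SD, n = 3) in left and 0.787 ± 0.201 in right oil ducts (1.02 ± 0.18, adjusted p = 0.0003). Its EE call in right ducts (0.49 ± 0.18, adjusted p = 0.0422) was lost without any 1 of 9 samples (adjusted p from 0.0509 to 0.167) and with a replicate block (adjusted p = 0.0561). A gene described as integrin alpha-9-like (LOC107309897, chromosome 2, 79442548 to 79550512) was also higher on the left in oil (0.86 ± 0.18, adjusted p = 0.00162). How reads that fit both LOC107309897 and ITGA9 were counted is not known here.

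**Figure D3:**
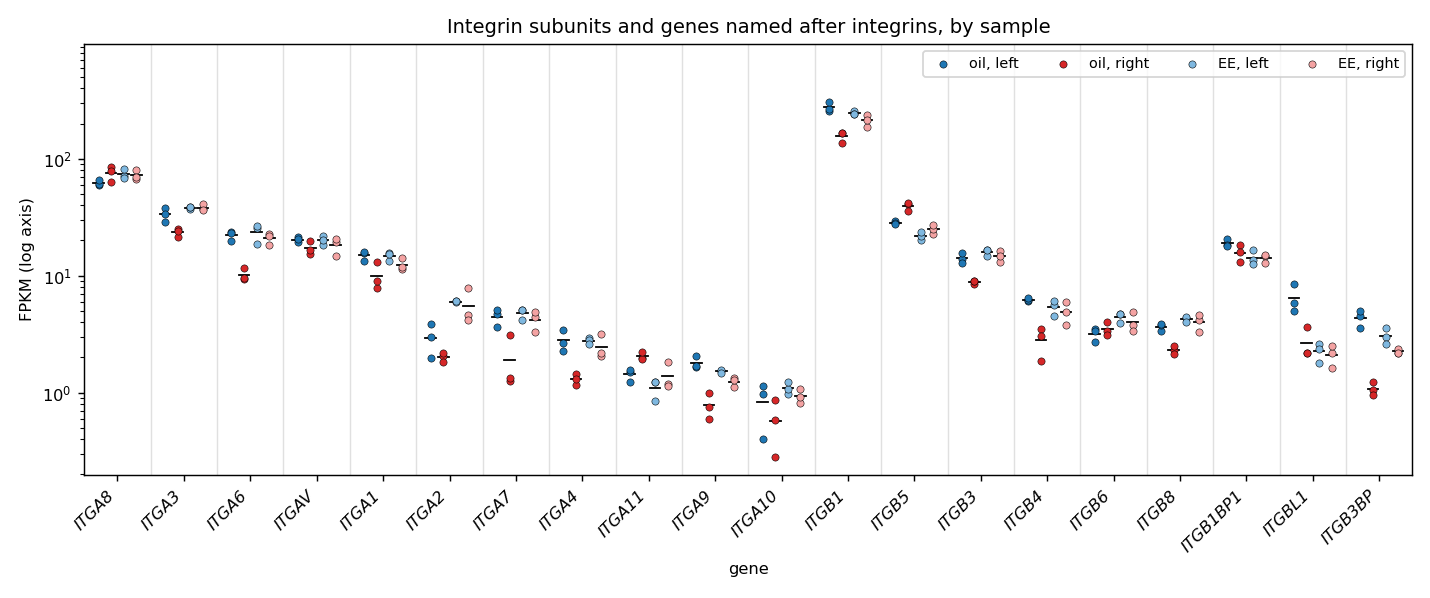
FPKM (log axis) of 17 integrin subunits and 3 genes named after integrins in each of the 12 samples, coloured by group, with a bar at the mean of 3 samples. For ITGA6, ITGB1, ITGB3, ITGB8 and ITGB3BP the right oil samples lie under all others, for ITGB5 they lie above all others, and for ITGA2 all EE samples lie above all oil samples.

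The subunits ITGB2, ITGB7 and ITGA2B of blood cells were under the filter. ITGB2 and ITGB7, the beta subunits of leukocytes, reached 0.59 and 0.56 FPKM at most. ITGA2B, the thrombocyte subunit, stood at 0.23, 1.57 and 0.75 FPKM in right oil ducts and at no more than 0.39 elsewhere, and the summed level of 7 thrombocyte markers was 15.3 to 26.00 FPKM in right and 6.57 to 9.08 in left oil ducts. An integrin alpha-D-like gene outside the symbol rule (LOC107321029) was lower in left than in right oil ducts (-1.83 ± 0.20, adjusted p = 5.36e-06). EE lowered it in right ducts (-1.29 ± 0.20, adjusted p = 0.000135), with an interaction of 1.71 ± 0.29 (adjusted p = 0.00092). An integrin alpha-L-like gene at 0.54 to 1.92 FPKM (LOC107321102) was also lower with EE in right ducts (-1.57 ± 0.51, adjusted p = 0.0243). Another gene of that description, LOC107307310, was called in no comparison. Neither of the 2 genes described as integrin alpha-5-like, a fibronectin receptor subunit, was called in any comparison. LOC107307552 stood at 2.58 to 8.71 FPKM and LOC107307553 at 14.6 to 32.3 over the 12 samples.

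Of the genes that are only named after integrins, ITGB3BP showed the widest side difference in oil of the 33. It encodes a protein of the kinetochore, the part of the chromosome that the spindle holds. ITGB3BP stood at 4.55, 3.54 and 4.98 FPKM in left oil ducts, 1.06, 1.24 and 0.95 in right oil ducts, 2.98, 3.57 and 2.61 in left EE ducts and 2.17, 2.37 and 2.2 in right EE ducts. The groups of the 2 sides were far apart in oil and just separate in EE. Its ratio was 1.81 ± 0.20 (SE, adjusted p = 4.1e-06) in oil, 0.41 ± 0.19 (SE, adjusted p = 0.656) in EE and 0.87 ± 0.20 (SE, adjusted p = 0.00289) for EE in right ducts, with an interaction of -1.40 ± 0.27 (SE, adjusted p = 0.00315), a call that stood under all alternatives. All 11 markers of dividing cells in the table were higher on the left in oil and rose with EE in right ducts, with a summed level of 515 to 615 FPKM in left oil, 112 to 141 in right oil, 424 to 503 in left EE and 326 to 398 in right EE ducts, and their part in the ITGB3BP result was not tested. ITGBL1, a secreted protein with repeats like those of integrin beta subunits, stood at 5.02, 8.44 and 5.82 FPKM in left oil ducts, 3.61, 2.2 and 2.2 in right oil ducts, 1.78, 2.6 and 2.36 in left EE ducts and 1.63, 2.17 and 2.52 in right EE ducts. Left oil ducts stood above the other 3 groups, which overlapped. ITGBL1 was higher on the left in oil (1.09 ± 0.26, adjusted p = 0.00414) and fell with EE in left ducts (-1.54 ± 0.27, adjusted p = 0.00101), the largest fall of the 33 genes, while in right ducts EE gave -0.51 ± 0.27 (SE, adjusted p = 0.157). Without the first right oil replicate the latter was -0.26 (adjusted p = 0.517), and the interaction, not called with it (-1.03 ± 0.38, adjusted p = 0.0963), was called (log2 -1.27, adjusted p = 0.0384). ITGB1BP1, which binds the inner tail of ITGB1, lay between 12.5 and 20.7 FPKM and was not called. ITGB1BP2, a muscle protein, reached 0.63 FPKM at most, in the first right oil replicate.

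The interaction asks whether the side difference itself changed with EE, and 7 of the 33 genes passed, 21.2% beside 11.2% of all tested genes (4.68% higher and 6.53% lower). For ITGA6, ITGB1, ITGB4 and ITGB3BP the left excess of oil ducts was smaller in EE, and for ITGA8, ITGB5 and LAMB2 the right excess was smaller. Without the third right oil, the third left EE or the second right EE replicate 4 of the 33 were called. Limma on log2(FPKM + 1) called 0 higher and 7 lower, and scaling by library size 1 higher and 10 lower, in place of 3 and 4. Under that scaling the median ratio of all tested genes was 0.177 in oil, 0.172 for EE in right ducts and -0.147 for the interaction. A further 10 genes, ITGA3, ITGA4, ITGA7, ITGA9, ITGB3, ITGB8, ITGBL1, LAMA1, LAMA2 and NID1, had interactions from -1.03 to -0.37 that did not pass (adjusted p from 0.0501 to 0.382) and were each called under at least 1 alternative.

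The make-up of each class was compared as the share of its summed FPKM, a measure that does not depend on scaling. Each sum took only genes found by the symbol rule, so a share is not of all transcripts of a class. Left out of the integrin alpha sum were, among others, LOC107307553 (14.6 to 32.3 FPKM), LOC107309897 (3.86 to 12.6) and LOC107321029 (1.32 to 7.23). LOC107319878 (2.25 to 5.95 FPKM) was left out of the laminin beta sum. LAMA1 made up 3.28% ± 0.484 (SD, n = 3) of laminin alpha transcripts in left and 3.36% ± 0.384 in right oil ducts, and 11.2% ± 1.71 and 12.8% ± 4.22 in EE. EE samples all lay above oil samples on each side (exact permutation test, two-sided, p = 0.1 in left and 0.1 in right ducts, the smallest p that 3 against 3 allow). LAMA4 kept 49.4% ± 0.999 in left and 49.7% ± 1.2 in right oil ducts, so its lower level on the right came with a like fall of the class. LAMB2 was 26.9% ± 3.65 of laminin beta transcripts in right oil ducts and 15.5% ± 2.5, 14.7% ± 0.332 and 16.1% ± 1.9 in left oil, left EE and right EE ducts. ITGA8 was 51.7% ± 1.42 of integrin alpha transcripts in right oil ducts, against 37.1% ± 1.73, 39.1% ± 1.55 and 40.7% ± 0.968 in the other groups in the same order. The share of ITGA6 was lowest there (6.97% ± 0.503, against 13.3% ± 1.01 in left oil ducts). ITGB5 took 18.5% ± 0.27 of integrin beta transcripts in right oil ducts and 8.63% ± 0.918 in left oil ducts, and ITGB1 72.97% ± 0.851 and 82.9% ± 1.68. Share tests were run on the laminin alpha chains and on LAMB2, ITGA3, ITGA6, ITGA8, ITGB1 and ITGB5. Each of the latter genes was called between the sides in oil. For ITGA3, ITGA6, ITGA8, ITGB1, ITGB5, LAMA2, LAMA3 and LAMB2 the oil sides did not overlap in share (exact permutation p = 0.1 each). LAMA2 was 11.1% in left and 7.47% in right oil ducts, LAMA3 3.19% and 6.05%, and ITGA3 20.1% and 16.2%. For LAMA1, LAMA4 and LAMA5 the oil sides overlapped. In EE the sides overlapped for ITGA3, ITGA6, ITGA8, LAMA2, LAMA3 and LAMB2 and still did not for ITGB1 and ITGB5. ITGB1 and ITGB5 together make up most of the integrin beta sum, so their shares move against each other and are not separate results.

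**Figure D4:**
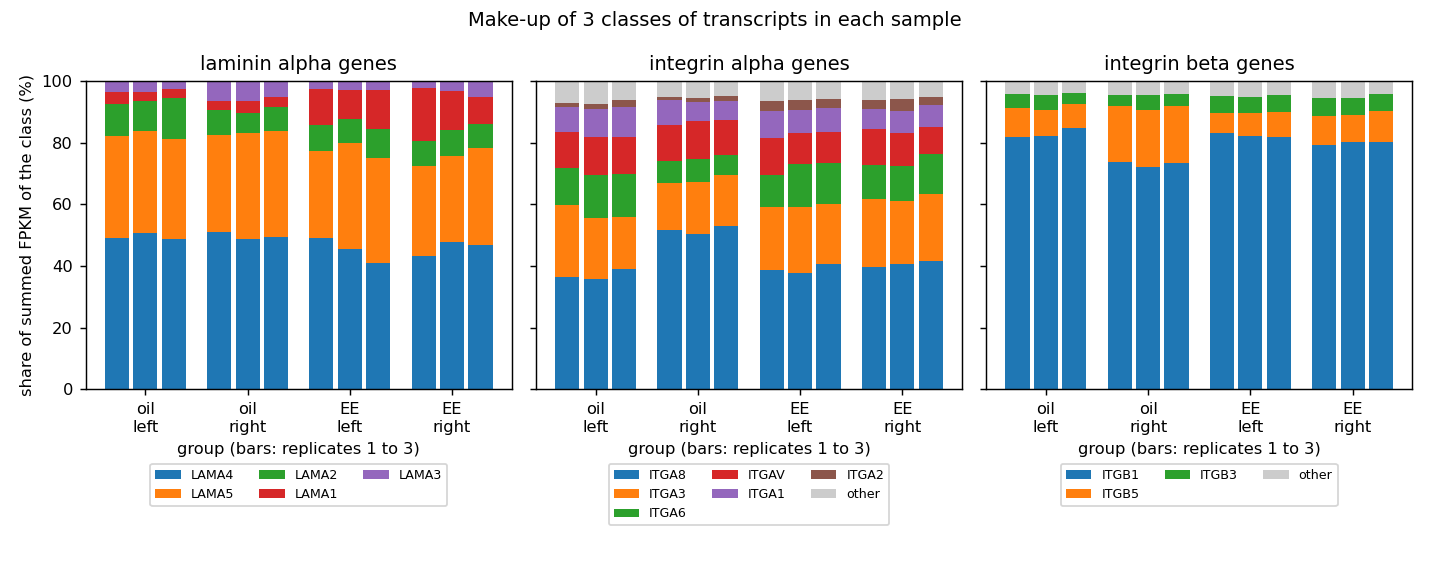
Share of the summed FPKM of the laminin alpha, integrin alpha and integrin beta genes found by the symbol rule (vertical axis, percent). Shares are given for each gene in each sample, with 3 bars per group for replicates 1 to 3. The LAMA1 band is wider in all 6 EE samples, and the ITGA8 and ITGB5 bands are widest in the 3 right oil samples.

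Other genes of the same structures were read from lists chosen with earlier results of these data known. Of 6 basement membrane collagens tested, 4 were higher and 1 lower on the left in oil, 2 rose with EE in left ducts and 5 in right ducts, and none fell. That is 83.3% of the list in oil, 33.3% in left ducts and 83.3% in right ducts, beside the 36.5%, 13.3% and 34% of all tested genes. COL4A5 and COL4A6, type IV collagen chains that are neighbours in vertebrate genomes, rose in left ducts by 1.83 ± 0.12 (adjusted p = 1.07e-07) and 1.64 ± 0.12 (adjusted p = 3.26e-07) and in right ducts by 1.54 ± 0.12 (adjusted p = 1.95e-07) and 1.18 ± 0.12 (adjusted p = 2.15e-06). COL4A1 and COL4A2, the chains of most basement membranes, were higher on the left in oil (1.26 ± 0.15 and 1.24 ± 0.15), as was COL18A1, at 113 ± 6.52 FPKM (SD, n = 3) on the left and 50.2 ± 9.71 on the right (adjusted p = 3.76e-06). Of 21 other basement membrane and adhesion genes, the left side was higher in 12 and lower in 5 in oil, and with EE 4 rose and 5 fell in left ducts and 3 and 5 in right ducts, or 81%, 42.9% and 38.1% of the list, the last near the share of all genes. FRAS1, which links epithelium to stroma in the mouse embryo, rose on both sides (0.70 ± 0.10 and 0.79 ± 0.10). COL17A1, a hemidesmosome collagen, rose in right ducts (1.23 ± 0.18). Among those that fell were FREM1 in left ducts (-1.08 ± 0.17) and PXDN (-0.94 ± 0.11) and NTN1 (-0.90 ± 0.14) in right ducts. In oil, NTN1 (-1.32 ± 0.14) and SMOC2 (-0.83 ± 0.11) were among those lower on the left, and SMOC1 (0.89 ± 0.12) among those higher. Of 16 soluble and interstitial integrin ligands, 7 were higher and 1 lower on the left in oil, while with EE 6 fell and none rose in left ducts and 3 rose and 5 fell in right ducts, or 50%, 37.5% and 50% of the list. TGFBI, a secreted matrix protein, fell from 651 ± 98.3 to 167 ± 20.7 FPKM (SD, n = 3) in left ducts (adjusted p = 3.26e-07) and from 372 ± 66.2 to 148 ± 22.6 in right ducts (adjusted p = 1.28e-06). CCN2 was higher on the left in oil (2.92 ± 0.21) and fell with EE in left ducts (-1.52 ± 0.20). In right ducts CCN2 stood at 9.76 ± 1.16 FPKM (SD, n = 3) in oil and 17.9 ± 3.75 in EE. The CCN2 interaction was -2.22 ± 0.29 (adjusted p = 0.000114). RELN (1.19 ± 0.15) and EDIL3 (0.91 ± 0.14) rose with EE in right ducts. Of 30 talin, kindlin, ILK and focal adhesion genes, which couple integrins to actin, the left side was higher in 9 and lower in 2 in oil, and with EE 1 rose and 3 fell in left ducts and 3 and 2 in right ducts. These are 36.7%, 13.3% and 16.7% of the list, which in oil and in left ducts is about the share of all tested genes and in right ducts is under it. PARVB (0.61 ± 0.08), VCL, vinculin (0.71 ± 0.12), and FERMT2, a kindlin (0.58 ± 0.13), were among those higher on the left. Between the sides in EE no gene of these 4 lists was called with edgeR.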

How the data were processed

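RNA-seq of 12 samples in 4 groups was analysed from the authors' deposited table, which holds raw counts per gene and FPKM values per sample. Per the submitters' processing notes the authors used cutadapt 1.9.1, HISAT2 2.0.1, HTSeq 0.6.1 and DESeq2 1.6.3, while build, annotation and strand setting were not stated in what was used here. The deposited FPKM values were returned from the counts, exonic length and total counts to within 0.005. All 40 genes had the start and end given by RefSeq for Coturnix japonica 2.1, whose chromosome names are used. Exonic gene sizes, another deposited column, are lengths in bases.

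Counts were fitted in R 4.3.3 with edgeR 4.0.16 (TMM, quasi-likelihood, two-sided) in a single model of 4 group means, for genes at 1 FPKM or above in 3 or more of the 12 samples. Calls need a Benjamini-Hochberg adjusted p under 0.05 over 12113 genes. SE is the unshrunk log2 ratio divided by the root of the F statistic. Alternatives were DESeq2 1.42.0, limma 3.58.1 on log2(FPKM + 1) and log2(FPKM + 0.1), other scalings and filters, fits of only the groups compared, a replicate block, an erythroid covariate (the sum of log2(CPM + 1) over 6 markers), each sample left out, and the first left oil, right oil and right EE replicates left out together. A filter within 1 group was added after the values were seen.

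Members and lists were chosen with earlier results of these data known. Members called in any comparison are named with values and the others with their range. From each list, up to 4 called genes with the lowest p in each comparison may be named. The genes of the forming duct and those outside the symbol rule were chosen after their values were seen. Group non-overlap was counted on TMM-scaled counts. Replicate numbers were not taken as pairs. One of the 40 genes entered the fits and counts and is not reported here by name.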

Additional observations from a re-analysis of the deposited data

Results flagged for a closer look

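For 7 genes the left minus right difference in EE differed from that in oil by the interaction test. Values are the log2 interaction with its SE and the adjusted p from edgeR's quasi-likelihood test, and samples are counted against the opposite side of the same exposure. ITGB3BP stood at -1.40 ± 0.27 (SE, adjusted p = 0.00315) and ITGA6 at -0.81 ± 0.17 (SE, adjusted p = 0.0052), and neither lost its call in any fit without 1 of the 12 samples. ITGB4 stood at -0.86 ± 0.25 (SE, adjusted p = 0.0383) and ITGB1 at -0.44 ± 0.12 (SE, adjusted p = 0.0281). In these 4 genes all 3 left oil samples lay above all 3 right oil samples. LAMB2 stood at 0.79 ± 0.19 (SE, adjusted p = 0.012), ITGA8 at 0.45 ± 0.13 (SE, adjusted p = 0.0322) and ITGB5 at 0.42 ± 0.12 (SE, adjusted p = 0.0317), with all 3 left oil samples under all 3 right ones in TMM-scaled counts. LAMB2 too was called in each of those fits, and ITGB4, ITGB1, ITGA8 and ITGB5 were not. No group had more than 3 samples, so single samples were not tested as outliers.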

How the results depend on the processing

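With an erythroid covariate the genes called were 10 between the sides in oil, 7 for EE in left ducts, 10 for EE in right ducts and 5 for the interaction, in place of 22, 4, 18 and 7, and the cause was not tested. The erythroid sum was higher in each right than in each left oil duct, so covariate and side cannot be fully told apart there. In right ducts the covariate, centred on its mean, was 4.37 to 11.3 in oil and -5.64 to 4.27 in EE. Covariate and EE therefore cannot be fully told apart in right ducts either. DESeq2 called 1 gene between the sides in EE (LAMA5) in place of 0, and scaling by library size 11 in the interaction in place of 7, where fold changes shift with the median of all genes. Leaving out 1 sample at a time gave 19 to 23 genes between the sides in oil, 0 to 1 in EE, 4 to 5 for EE in left ducts, 13 to 21 for EE in right ducts and 4 to 10 for the interaction. Of the 22 genes called between the sides in oil, ITGA6, ITGA9, ITGB1, ITGB3, ITGB3BP, ITGB5, LAMA2, LAMA5 and LAMB2 kept the call under every alternative that gave them a value. So did ITGA2, ITGB5, ITGBL1 and LAMA1 for EE in left ducts, 9 of 18 genes for EE in right ducts, and ITGA6 and ITGB3BP for the interaction. No called ratio changed sign, and 108 of 2666 values of uncalled ratios did. The other alternatives kept each count within 1.5 times. Whether same-numbered left and right samples were paired by embryo is not known. Over all groups the deviations of same-numbered samples from their group means correlated at -0.194 to 0.150. In oil, same-numbered left and right samples gave 0.0514, 0.139 and 0.147, against -0.149 to 0.0229 for left and right samples of different numbers. In EE they gave -0.0221, -0.00751 and 0.0728, against -0.150 to 0.157. With a replicate block 21 genes were called between the sides in oil, 0 in EE, 5 for EE in left ducts, 17 for EE in right ducts and 7 for the interaction, and the calls that changed were those of ITGA11 in oil, ITGA9 in right ducts and ITGB6 in left ducts. That block gave samples of the same number the same shift in all 4 groups. A block by number within each exposure was not fitted, so these counts do not settle whether the sides were paired. Genes under about 1 FPKM are limited by depth, and 7 of the 40 could not be tested.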
